A study of Mus musculus with 12 samples.

Results

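The 8 genes described here, across chow and NASH libraries of mouse liver and liver sinusoidal endothelial cells, are Afp, Gpc3, H19, Igf2, Golm1, Ly6d, Sprr1a and Sdcbp2. Afp, Gpc3, H19, Igf2 and Golm1 were picked as genes that fetal liver or liver tumours are known to express. Ly6d, Sprr1a and Sdcbp2 were selected on their large difference between NASH and chow in these same liver libraries, so for these 3 genes the liver values are a description and carry no test. All 8 genes had a row in both tables, 8 of 16703 genes in liver and 8 of 16273 in the endothelial cells.

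The study compared C57BL/6 mice on chow with mice on the NASH diet D09100301, a diet that gives nonalcoholic steatohepatitis, a fatty liver with inflammation and scarring. Whole liver RNA was sequenced from 3 chow and 3 NASH samples. Another set of 3 chow and 3 NASH samples came from liver sinusoidal endothelial cells (LSEC), the fenestrated lining cells of the liver's capillaries, which were prepared from non-parenchymal cells by taking out CD11b+ cells and then binding CD146+ cells to magnetic beads. The labels give 36 weeks of NASH diet in a text shared by all 12 samples, chow included; they give no genotype change, transgene, sex or age for any group. Nothing in the labels says that the replicates of a group were separate animals, so p-values measure only the spread between these samples, which may be technical.

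Afp encodes alpha-fetoprotein, the albumin relative that the yolk sac and fetal hepatocytes secrete and that hepatocytes silence around birth. H19 and Igf2 are neighbouring imprinted genes that share enhancers and are expressed from opposite parental chromosomes: Igf2 encodes a fetal growth factor and H19 a long noncoding RNA that is also the precursor of a microRNA. Both fall steeply in liver after birth, and all these genes, with the cell-surface glypican Gpc3 and the Golgi membrane protein GP73 that Golm1 encodes, are used or studied as markers of hepatocellular carcinoma. Ly6d encodes a small membrane-anchored surface protein of the Ly6 family, known from B cell precursors and squamous epithelia. Sprr1a encodes a small proline-rich protein of the cornified envelope that is induced by stress in many tissues, and Sdcbp2 encodes syntenin-2, a PDZ-domain adaptor that binds syndecans and membrane phosphoinositides.

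Values are normalized reads, the deposited read counts after scaling by one factor per library. Libraries held 47000197 to 57397720 reads in liver and 18527017 to 19402863 in LSEC. Differences are NASH minus chow on the scale log2(normalized reads + 1), tested with limma, and a gene was called when its Benjamini-Hochberg adjusted p over all genes of its table was below 0.05. In liver 25.0% of all genes were called higher in NASH and 21.0% lower, and in LSEC 5.24% were called higher and 2.86% lower. Counts of called genes in the lists below stand beside these shares. Scaling by total reads instead raised the median difference of all liver genes by 0.40 and that of LSEC genes by 0.14. This turned the liver split from 4179 higher and 3512 lower into 7878 higher and 904 lower, and the LSEC split from 853 and 466 into 1164 and 273. The tissue labels were checked against defining markers: albumin (Alb), the main secreted protein of hepatocytes, stood at 1962587 or more normalized reads in every liver library. Of the endothelial genes, Pecam1 averaged 27402 normalized reads in LSEC and 1713 in liver on chow, and Stab2 averaged 60315 and 4231. The LSEC libraries also held 5800 to 61571 normalized reads of Alb. No marker list had a measured gene at 0 in every library of a tissue, but genes without reads may have no row. In each tissue 13 of 14 listed B cell markers and 8 of 9 listed mesothelial markers had a row.

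**Figure D1:**
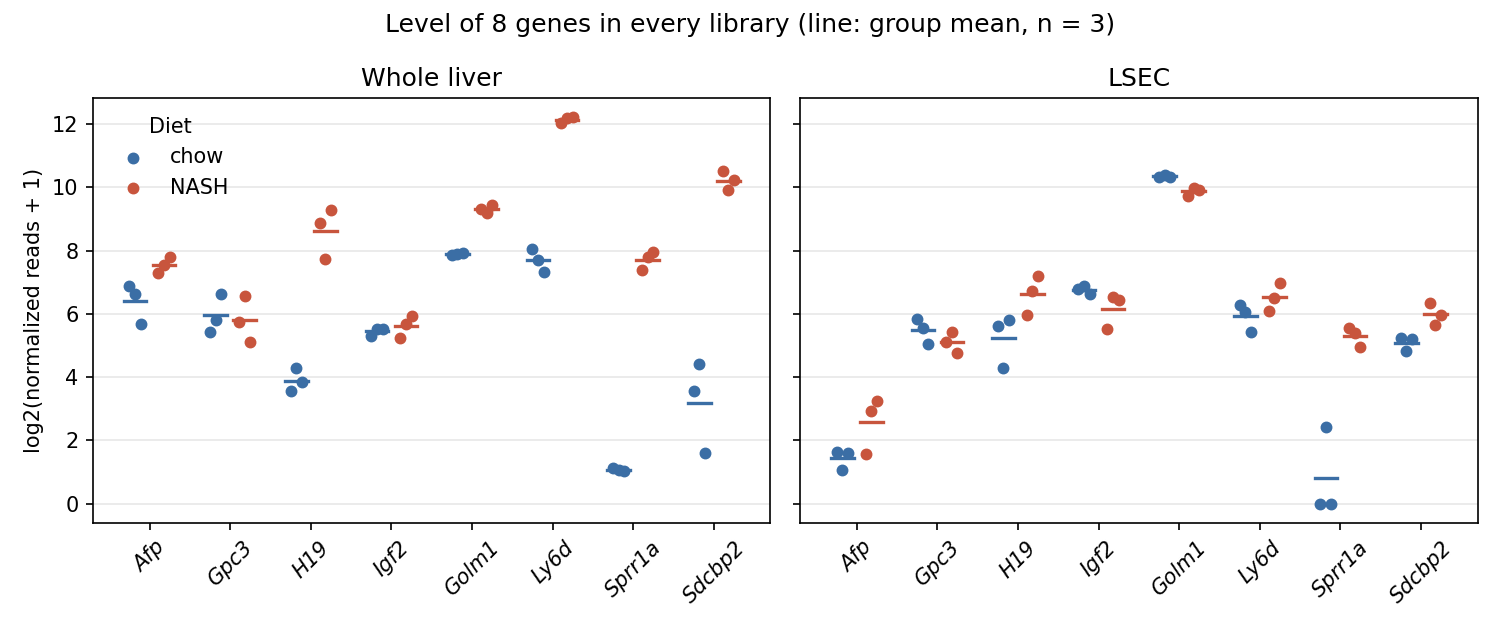
Each point is one library, with log2(normalized reads + 1) on the vertical axis and short lines at the means of 3 libraries. In liver the NASH points of Afp, H19, Golm1, Ly6d, Sprr1a and Sdcbp2 lie above all chow points, while Gpc3 and Igf2 overlap; in LSEC Golm1 and Igf2 lie below chow and H19, Sprr1a and Sdcbp2 above it. Ly6d, Sprr1a and Sdcbp2 were picked for their liver rise. The share of all genes without such overlap was not counted.

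Among the 5 genes picked as fetal or tumour-linked, Afp, H19 and Golm1 rose in NASH liver and Gpc3 and Igf2 were not called. That is 3 of 5 genes called higher, beside 25.0% of all liver genes. The ratio of means was 2.11 for Afp, 2.68 for Golm1 and 30.7 for H19. In LSEC 1 of the 8 genes, Sprr1a, was called higher, beside 5.24% of all LSEC genes, and limma called none of the 8 lower, beside 2.86%. Of the genes lower in LSEC, 1, Golm1, had an unadjusted p below 0.05, and DESeq2 called it. For Golm1 the direction of the difference was opposite in the 2 tissues.

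Afp lies at chr5:90490737-90508907 on the plus strand (mm10, GENCODE M21), and its promoter is shown because Afp, silenced at birth, was called higher in NASH liver. The sequence below is the stretch before the RefSeq start, chr5:90490464-90490713 on the plus strand of GRCm38.p6, with capitals on an HNF1 half-site (GTTAAT) and a TATA box (TATAAA).
Afp: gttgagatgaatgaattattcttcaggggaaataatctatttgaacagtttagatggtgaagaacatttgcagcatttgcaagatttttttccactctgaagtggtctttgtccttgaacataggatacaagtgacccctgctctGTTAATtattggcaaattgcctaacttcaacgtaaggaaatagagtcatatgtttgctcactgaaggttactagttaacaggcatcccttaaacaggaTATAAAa
GTTAAT was present on either strand in 7.10% of 32851 RefSeq promoter windows of the same extent, 250 bases before to 50 after the start, and TATAAA in 13.6%. A match is only a run of letters here, and no binding was measured.

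Normalized reads of Afp in liver were 116, 98.2 and 50.2 on chow and 156, 184 and 219 in NASH. The lowest NASH library lay above the highest chow library. Means were 88.2 ± 34.1 and 186 ± 31.4 (SD, n = 3 each), a log2 difference of 1.14 (SE 0.30, 95% interval 0.47 to 1.81, limma adjusted p = 0.0121). Without the NASH library of 219 reads the difference was 1.02 and was no longer called (limma adjusted p = 0.0579). Even in NASH the level of Afp was low, at 1.22 ± 0.267 RPKM (SD, n = 3; reads scaled to library size and exon length).

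In LSEC Afp was near the limit of detection, with 5 reads in the 3 chow libraries together and 18 in the 3 NASH libraries. The values were 2.09, 1.09 and 2.05 on chow and 1.93, 6.53 and 8.37 in NASH, and the groups overlapped. The difference of 1.13 had a 95% interval from −0.22 to 2.49 and did not pass (limma adjusted p = 0.264). Its lowest and highest NASH libraries were also the lowest and highest for the summed level of 18 hepatocyte markers, which was 9406 to 109048 on chow and 55375 to 115024 in NASH. Chow LSEC library 2, with a sum of 109048, held 1 read of Afp. The part of carried-over hepatocyte RNA in these few reads was not tested.

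Afm, the afamin gene of the albumin family, 10025 bases from Afp, fell in NASH liver by 0.73 (limma adjusted p = 0.00131). Alb, 14135 bases away, had a difference of −1.03 that did not pass (limma adjusted p = 0.0993). Scaling by total reads exchanged these calls, with Afm at −0.31 (limma adjusted p = 0.0671) and Alb at −0.61 (limma adjusted p = 0.0280). Of 18 hepatocyte markers in liver, 10 were called lower, beside 21.0% of all liver genes. Among them were Tat, the tyrosine-degrading aminotransferase, at −2.67, and Tdo2, the tryptophan dioxygenase, at −1.50. The summed level of the 18 markers was 8757457 to 9488406 on chow and 4733477 to 5464236 in NASH. In whole liver, fewer cells of a type and less RNA per cell cannot be told apart.

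The transcription factors known to hold Afp, H19 and Gpc3 down after birth, or to drive them in hepatocytes, were examined as a list of 16. In liver 6 were called lower and 1 higher, beside 21.0% and 25.0% of all liver genes. The median difference was −0.24 against 0.02 for all genes. With scaling by total reads 4 were lower and 5 higher, and the median turned to 0.18. As the list pools factors that hold these genes down with factors that drive them, its counts and median give no direction for Afp, H19 or Gpc3. Foxa3, a forkhead factor of hepatocytes, fell by 1.41, Nr5a2, a nuclear receptor of bile acid control, fell by 0.78, and Hnf4a, a master regulator of hepatocyte genes, fell by 1.06. Zhx2, the postnatal repressor of Afp, H19 and Gpc3, stood at 935, 943 and 1212 normalized reads on chow and 1031, 991 and 1018 in NASH, a difference of −0.01 (limma adjusted p = 0.936) that turned to 0.40 (limma adjusted p = 0.0315) with scaling by total reads. For Zbtb20, another repressor of Afp, the difference was −0.48 (limma adjusted p = 0.0783). In LSEC limma called 0 of the 16 in either direction, 8 had an unadjusted p below 0.05, all higher, edgeR called 0 and DESeq2 6. DESeq2 called 1581 of all 16273 LSEC genes higher. The share of all LSEC genes with an unadjusted p below 0.05 was not counted.

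H19 lies at chr7:142575529-142578143 on the minus strand and Igf2 at chr7:142650766-142666816 on the minus strand, with 72622 bases between the gene bodies. H19 is the host of miR-675, whose 2 mature strands lie within the gene at chr7:142577112-142577133 and chr7:142577078-142577099, minus strand, GRCm38.p6. Their RefSeq sequences are shown because they are the part of H19 that acts as a microRNA; capitals mark the seed, bases 2 to 8, which differs between the strands.
miR-675-5p: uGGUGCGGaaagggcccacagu
miR-675-3p: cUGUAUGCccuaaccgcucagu
Neither table has a row for the microRNA, so its own level was not analysed here.

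H19 had the largest change of the 5 fetal genes. Its normalized reads in liver were 10.7, 18.3 and 13.3 on chow and 469, 213 and 619 in NASH. Every NASH library was far above every chow library, and NASH library 2 held less than the other NASH libraries. Means were 14.1 ± 3.89 and 434 ± 205 (SD, n = 3 each), a log2 difference of 4.75 (SE 0.38, limma adjusted p = 1.90e-05). In reads, 39 on chow became 1493 in NASH, a ratio of 30.7 with a 95% counting interval from 22.4 to 43.4.

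Igf2 was not called in liver. Normalized reads of Igf2 in liver were 38.0, 45.3 and 45.1 on chow and 36.7, 50.3 and 59.5 in NASH, with overlapping groups, and the log2 difference was 0.16 (95% interval −0.44 to 0.77, limma adjusted p = 0.648). With scaling by total reads the difference was 0.57 (limma adjusted p = 0.130). Library by library, H19 reads divided by Igf2 reads, with no correction for length, came to 0.281, 0.405 and 0.295 on chow and to 12.8, 4.24 and 10.4 in NASH. In LSEC the same ratio was 0.438, 0.157 and 0.568 on chow and 1.37, 1.14 and 1.72 in NASH. The ratios of the 2 diets did not overlap in either tissue. Igf2 values carry a limit: 62.8% of its exon bases are also annotated to a readthrough transcript, Gm49394, so the counting could split its reads.

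H19 was not called in LSEC. Normalized reads of H19 in LSEC were 48.1, 18.5 and 55.3 on chow and 60.9, 104 and 147 in NASH. The groups did not overlap, but the lowest NASH library lay close to the highest chow library, and the difference of 1.39 (95% interval 0.21 to 2.57) did not pass over all genes (limma adjusted p = 0.137). The NASH difference was larger in liver than in LSEC by 3.36 (95% interval 2.01 to 4.71, adjusted p = 0.00233 over 15766 genes by the t distribution on limma's variances). Of all 15766 genes, 11.5% were called with a larger difference in liver. For Igf2 in LSEC, normalized reads were 110, 118 and 97.2 on chow and 44.4, 91.4 and 85.5 in NASH, all NASH libraries below all chow libraries. That difference of −0.61 did not pass (95% interval −1.37 to 0.15, limma adjusted p = 0.282).

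**Figure D2:**
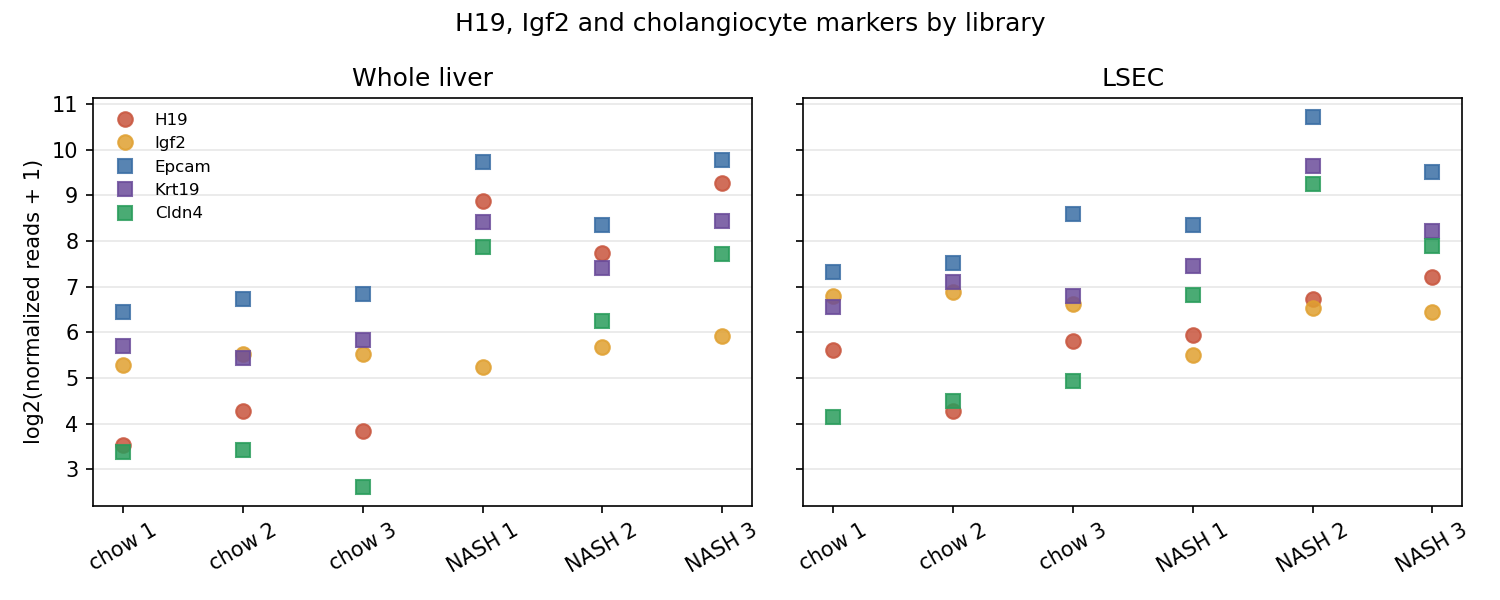
Each point is one library, with log2(normalized reads + 1) on the vertical axis, for H19 and Igf2 (circles) and the bile duct markers Epcam, Krt19 and Cldn4 (squares). In liver, NASH library 2 is the lowest of the 3 NASH libraries for H19 and for all 3 markers; in LSEC the markers peak in NASH library 2, while H19 is highest in NASH library 3.

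Bile duct markers rose in NASH liver, as H19 did. All 15 cholangiocyte markers measured were called higher in NASH liver, beside 25.0% of all liver genes. Their summed level went from 6938 to 8214 on chow to 26611 to 46758 in NASH. Spp1, also in the macrophage list, made up most of the NASH sums, at 28269, 17006 and 33266 of 41817, 26611 and 46758. Epcam, a surface adhesion protein of bile duct cells, stood at 842, 326 and 875 normalized reads in NASH against 86.6 to 114 on chow, and Krt19, a bile duct keratin, at 341, 168 and 343 against 42.1 to 56.4. NASH library 2 was thus lowest for H19, Epcam and Krt19 alike. In LSEC limma called 3 of 15 higher and DESeq2 13, 13 had an unadjusted p below 0.05, and 0 to 5 were called with a library left out; the sums were 6137 to 12504 on chow and 13727 to 59006 in NASH. There the library with the highest sum, NASH library 2, was not the one with the most H19. In liver the summed macrophage markers were also lowest in NASH library 2, at 134929, 119709 and 194388 in the 3 NASH libraries. The part of bile duct cells or of macrophages in the level of H19 was not tested.

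Of the 21 other imprinted genes measured in liver, 8 were called higher and 4 lower, beside 25.0% and 21.0% of all liver genes. Their median difference was 0.39 against 0.02 for all genes. Scaled by total reads, 13 rose and 4 fell, with a median of 0.80. Slc38a4, an amino acid transporter, fell by 1.09, while Sgce, a membrane sarcoglycan, rose by 1.20. Meg3, a maternally expressed noncoding RNA, fell steepest: 255, 148 and 93.3 normalized reads on chow and 4.59, 16.1 and 18.5 in NASH (log2 difference −3.64, limma adjusted p = 0.000403). In LSEC 4 of 22 were higher and 1 lower; Peg10 rose from 49.1, 86.0 and 52.2 to 470, 398 and 726 (3.07, limma adjusted p = 0.00495). Mest rose by 1.93 and Plagl1, a zinc finger factor known as a regulator of imprinted genes, by 1.76. Plagl1, Peg10, Grb10 and Mest were called higher in both tissues. Of the noncoding imprinted RNAs, Meg3 thus fell in liver where H19 rose.

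The receptors and binding proteins of the IGF2 system were a list of 11. Of these 3 were higher and 5 lower in liver, beside 25.0% and 21.0% of all liver genes. Igfbp2, a binding protein that hepatocytes secrete, fell by 2.39 (limma adjusted p = 4.94e-06), Insr, the insulin receptor, fell by 0.62, and Igfbp7 rose by 1.33. In LSEC 2 rose and 1 fell: Igfbp5 rose by 1.90, Igfbp3 by 2.09, and Igfbp4 fell by 0.61. With scaling by total reads the liver split was 4 higher and 3 lower and the LSEC split 2 and 0, as Igfbp4 lost its call (−0.47, limma adjusted p = 0.0718).

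Gpc3, at chrX:52272426-52613950 on the minus strand, encodes a heparan sulfate proteoglycan of the cell surface. Its liver values of 41.5, 55.0 and 97.4 on chow and 52.3, 94.5 and 33.8 in NASH overlapped fully. The difference was −0.13 with a 95% interval from −1.06 to 0.79 (limma adjusted p = 0.813), and it turned to 0.27 with scaling by total reads. In LSEC Gpc3 stood at 56.4, 45.7 and 31.7 on chow and 33.8, 42.0 and 26.0 in NASH, a difference of −0.37 (95% interval −1.18 to 0.44, limma adjusted p = 0.539). Of 4 other glypicans measured in liver 2 rose, Gpc6 by 1.50 and Gpc2 by 1.61, the latter from 3.56 to 6.47 normalized reads on chow to 16.1 to 20.2 in NASH. Gpc6 also rose in LSEC, from 116, 54.4 and 185 to 738, 598 and 531 (2.54, limma adjusted p = 0.0190).

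Golm1 lies at chr13:59634626-59675811 on the minus strand. Its liver replicates lay close together: 233, 235 and 244 normalized reads on chow and 633, 584 and 693 in NASH. Means were 237 ± 6.03 and 637 ± 54.3 (SD, n = 3 each), a log2 difference of 1.42 (SE 0.12, limma adjusted p = 2.90e-05). The gap between the groups was wider than the range within either.

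In LSEC Golm1 had a higher level on chow and a difference of the opposite sign. Normalized reads were 1284, 1332 and 1274 on chow and 853, 1011 and 956 in NASH, with no overlap. The difference was −0.47 (SE 0.12, 95% interval −0.74 to −0.20) and missed the threshold (limma adjusted p = 0.0524); it passed with a pseudocount of 10 (0.0495), after dropping genes that average under 10 reads (0.0482) and by DESeq2 (0.00899), and did not by edgeR (0.0568), with a pseudocount of 0.1 (0.0559), with any 1 library left out (0.0810 to 0.151) or with scaling by total reads, where it was −0.33 (0.131). The authors' deposited table gives an adjusted p of 0.00850 for the same gene and direction. The liver difference exceeded the LSEC difference by 1.88 (95% interval 1.53 to 2.24, adjusted p = 3.83e-06 over 15766 genes by the t distribution on limma's variances), and it was called under each alternative run, at 1.81 to 2.16.

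In LSEC, 6 of 16 sinusoidal endothelial markers fell and 2 rose, beside 2.86% and 5.24% of all LSEC genes. Their summed level went from 837050 to 856872 on chow to 480548 to 518591 in NASH. Bmp2, a signal by which these cells control iron, fell by 1.12, and Dnase1l3, a secreted nuclease, by 1.28, while the pan-endothelial Pecam1 differed by −0.08 (limma adjusted p = 0.753). The fall of the summed markers and the lower Golm1 stand side by side here, and their relation was not tested. Counting sets another limit: 1297 of the exon bases of Golm1, 29.3%, overlap Naa35 on the opposite strand, and the liver library kit does not mark strand. Naa35 itself differed by −0.04 in liver (limma adjusted p = 0.749) and by −0.16 in LSEC (limma adjusted p = 0.423). Of 6 other Golgi membrane proteins, Casc4, the closest relative of Golm1, rose by 0.74 in liver and 4 fell, among them the tether Golgb1 at −0.36; with scaling by total reads Casc4 was the only one called, and Golgb1 turned to 0.06.

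**Figure D3:**
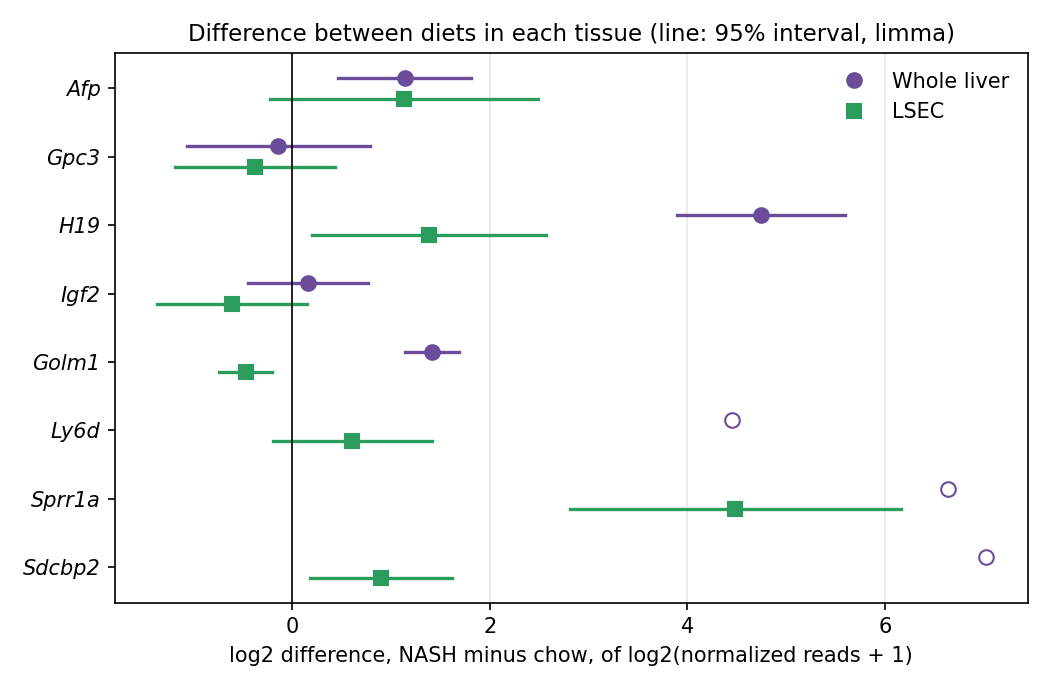
Log2 difference, NASH minus chow, for each gene in liver (circles) and LSEC (squares), with 95% intervals from limma; open circles are the 3 genes picked for their liver rise and carry no interval. Golm1 lies at 1.42 in liver and −0.47 in LSEC, and H19 at 4.75 and 1.39.

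The 3 genes picked for their rise reached very different levels. Ly6d, at chr15:74762056-74763620 on the minus strand, was already expressed on chow at 266, 208 and 158 normalized reads in liver and stood at 4174, 4653 and 4738 in NASH, a difference of 4.45. At 134 RPKM it was the most abundant of the 8 transcripts in NASH liver. In LSEC it read 76.3, 65.3 and 42.0 on chow and 67.6, 89.6 and 125 in NASH, with overlapping groups and a difference of 0.61 that did not pass (95% interval −0.20 to 1.42, limma adjusted p = 0.307).

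Ly6d is known from B cells, and the B cell markers were read beside it. Their summed level over 13 genes was 833 to 1205 in chow liver and 910 to 1564 in NASH liver. Cd79a, part of the B cell receptor, differed by −0.51 (limma adjusted p = 0.217), while Cd22 rose by 1.32. Other Ly6 family genes rose with Ly6d in liver: 6 of 11 were called higher, beside 25.0% of all liver genes. Their median difference was 1.63 against 0.02 for all genes. Ly6a, also called Sca-1, rose by 1.98 and Ly6e, an interferon-inducible member, by 1.91. Lynx1, which begins 9010 bases from Ly6d, rose by 1.93 in liver (limma adjusted p = 4.84e-05) and by 1.17 in LSEC (limma adjusted p = 0.0310). Them6, 37417 bases away, and Arc, 89486 bases away, rose in liver by 1.52 and 1.73.

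Sprr1a, at chr3:92483952-92485895 on the minus strand, and Sdcbp2, at chr2:151572622-151590005 on the plus strand, were almost silent in chow liver. Their promoters are shown because both genes, picked for their liver rise, stood near 0 in chow liver. Both windows hold the AP-1 element TGANTCA, found on either strand in 7.81% of the 32851 RefSeq windows. The stretches before the start are chr3:92485882-92486131, minus strand, and chr2:151572373-151572622, plus strand, GRCm38.p6, with capitals on TGAGTCA and on the TATA box.
Sprr1a: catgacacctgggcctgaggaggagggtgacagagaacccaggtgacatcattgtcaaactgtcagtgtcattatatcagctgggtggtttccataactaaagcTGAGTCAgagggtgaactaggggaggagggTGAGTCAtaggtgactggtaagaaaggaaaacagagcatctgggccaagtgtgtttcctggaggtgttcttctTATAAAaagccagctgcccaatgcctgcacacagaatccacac
Sdcbp2: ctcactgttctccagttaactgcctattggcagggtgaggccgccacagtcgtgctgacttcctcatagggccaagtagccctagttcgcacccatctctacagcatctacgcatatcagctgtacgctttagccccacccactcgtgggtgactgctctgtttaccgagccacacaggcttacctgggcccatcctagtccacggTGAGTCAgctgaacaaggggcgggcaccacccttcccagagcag
Sprr1a has the element at 2 positions, starting 146 and 116 bases before the start, and Sdcbp2 at 1, starting 44 bases before it. Among the 6 genes with a RefSeq promoter (Afp, Gpc3, Igf2, Golm1, Sprr1a and Sdcbp2), the other 4 had no match to TGANTCA. Of these, Afp and Golm1 were called higher in NASH liver, and Gpc3 and Igf2 were not called. H19 and Ly6d had no entry. A match is only a run of letters, no binding was measured, and a part of AP-1 in the liver rise was not tested.

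Sprr1a had 1 read in each chow liver library and 164, 221 and 245 normalized reads in NASH. That is 3 reads against 703, a ratio of 191. On the log2 scale the difference was 6.63, and it was 4.29 with a pseudocount of 10 in place of 1, because the chow values lie at the floor. Sprr1a was also the 1 gene of the 8 called in LSEC. It was picked on its rise in liver, but with earlier results of these data known. There the values were 0, 4.35 and 0 on chow and 45.4, 41.1 and 29.7 in NASH, 4 reads against 123. The ratio was 26.7 (95% counting interval 10.2 to 99.6) and the difference 4.48 (SE 0.71, limma adjusted p = 0.0171). As in liver, its size depends on the pseudocount, with 2.10 for 10 and 6.75 for 0.1, and it was called with each. Leaving out any 1 of the 3 NASH libraries or chow library 3 kept the difference at 4.08 to 4.66 but ended the call (limma adjusted p = 0.0599 to 0.0706).

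Macrophage markers also stood higher in NASH in both tissues. In NASH liver Sprr1a (164, 221 and 245 in order) and the macrophage sum (134929, 119709 and 194388) were both highest in library 3. Sprr1a was lowest in library 1 and the macrophage sum in library 2. In LSEC Sprr1a was highest in NASH library 1, where the macrophage sum was lowest (80188, 130747 and 90085 in order). In liver 14 of 17 macrophage markers were called higher and 1 lower, beside 25.0% and 21.0% of all liver genes. Their sums were 47564 to 69539 on chow and 119709 to 194388 in NASH. In LSEC 10 of 17 were higher, beside 5.24% of all LSEC genes, with sums of 23680 to 46376 and 80188 to 130747. Gpnmb, a glycoprotein of lipid-laden macrophages, went from 31.3, 18.5 and 12.3 to 1125, 1205 and 3063 in LSEC. Limma also called 3 of 15 cholangiocyte and 3 of 8 mesothelial genes higher in LSEC. The mesothelial list had a median difference of −0.36, and DESeq2 called 2 of its genes lower. Its genes called higher were Gpm6a, Krt8 and Krt18. The keratin Krt8 went from 132, 207 and 206 to 487, 1501 and 758, highest in NASH library 2. The bile duct marker Epcam was also highest there, at 327, 1690 and 727 in the NASH libraries. A rise of mesothelial cells cannot be read from this list. The part of these cell types in the level of Sprr1a was not tested. Of 9 other small proline-rich and cornified envelope genes, 2 rose and 2 fell in liver, beside 25.0% and 21.0% of all liver genes. Scaled by total reads, 4 rose and 0 fell. Krt5, a basal keratin, was at 0 in all chow livers and at 111, 6.03 and 4.83 in NASH, most of it in 1 library. In LSEC 2 of 9 rose, Sprr2b by 1.32 and Dsp, the desmosome plaque protein, by 2.10.

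In liver Sdcbp2 stood at 10.7, 20.5 and 2.05 normalized reads on chow and 1454, 957 and 1197 in NASH, 30 reads against 4024, a ratio of 109. The log2 difference was 7.02, and 6.23 without the chow library of 2.05. In LSEC, where the chow level was higher than in liver, it read 36.6, 27.2 and 35.8 on chow and 80.2, 49.5 and 61.4 in NASH. The groups did not overlap, but the difference of 0.90 (95% interval 0.19 to 1.62) did not pass over all genes (limma adjusted p = 0.117). Its relative Sdcbp, syntenin-1, rose by 0.78 in liver (limma adjusted p = 0.000524). Of the 4 syndecans, cell-surface proteoglycans, 3 fell there, Sdc1 by 0.73, Sdc2 by 0.66 and Sdc4 by 0.63, and Sdc3 rose by 0.77; with scaling by total reads Sdc1 was at −0.31 and Sdc2 at −0.24, both still called, and Sdc4 was not called. In LSEC Sdc2 rose by 0.94 and Sdc4 by 1.14.

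The order of levels in RPKM, computed from the recovered reads, changed with diet and tissue. On chow, liver held Ly6d (4.66 ± 1.11), Golm1 (0.885 ± 0.0476), Afp (0.429 ± 0.159) and Gpc3 (0.400 ± 0.192), then Sdcbp2 (0.129 ± 0.106), Igf2 (0.123 ± 0.0136), H19 (0.0945 ± 0.0249) and Sprr1a (0.0224 ± 0.00136) (SD, n = 3 each). Afp and Gpc3 did not differ beyond their spread, nor did Sdcbp2, Igf2 and H19. In NASH liver the order was Ly6d (134 ± 14.1), Sdcbp2 (18.96 ± 4.06), Sprr1a (5.77 ± 1.35), H19 (3.94 ± 2.03), Golm1 (3.18 ± 0.442), Afp (1.22 ± 0.267), Gpc3 (0.485 ± 0.232) and Igf2 (0.189 ± 0.0526). H19 overlapped with both Sprr1a and Golm1 there.

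In chow LSEC Golm1 led at 14.8 ± 0.153, ahead of Ly6d (4.15 ± 1.20), Sdcbp2 (1.20 ± 0.204), Igf2 (0.953 ± 0.0808), Gpc3 (0.837 ± 0.236), H19 (0.837 ± 0.408), Sprr1a (0.0893 ± 0.155) and Afp (0.0262 ± 0.00881). The libraries of Sdcbp2, Igf2, Gpc3 and H19 overlapped, as did those of Sprr1a and Afp. In NASH LSEC Golm1 (11.8 ± 1.10) and Ly6d (7.04 ± 2.18) still led, Sprr1a (2.67 ± 0.556), Sdcbp2 (2.53 ± 0.596) and H19 (2.35 ± 0.973) overlapped, and Igf2 (0.718 ± 0.253) and Gpc3 (0.702 ± 0.170), which overlapped, and Afp (0.0927 ± 0.0548) followed. On chow, Golm1 stood 16.7-fold, Sdcbp2 9.32-fold, H19 8.85-fold and Igf2 7.72-fold higher in LSEC than in liver, and Afp 16.4-fold higher in liver; the 2 tissues were normalized separately, so these ratios of RPKM carry no test.

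For each gene the 2 liver genes with the most similar profile were taken over the 6 liver libraries, as the smallest root mean square difference of log2 values centred on each gene's mean, among 11927 genes. Golm1 was most like Bcl2 (0.0421), the inhibitor of cell death, and Bgn (0.0479), the matrix proteoglycan biglycan. Afp was most like Syt12 (0.0928) and Neat1 (0.0943), a nuclear noncoding RNA. H19 was nearest to H2-M2 (0.337) and Adam8 (0.371), a leukocyte metalloprotease. Ly6d was nearest to Cx3cr1 (0.218), a chemokine receptor of monocytes and macrophages, and Ttc39a (0.222). Sprr1a was nearest to Gpnmb (0.318) and Gdf3 (0.432), and Sdcbp2 to Shc2 (0.695) and Gpnmb (0.780). Igf2 was most like Zswim6 (0.0572) and Styx (0.0618), and Gpc3 like Slc22a7 (0.248) and Zfp960 (0.296). These are descriptions over 6 libraries in 2 diet groups. The measure counts the size of the diet difference, so genes with like differences come near each other. Gpnmb differed by 6.36 in liver and Gdf3 by 6.15, beside 6.63 for Sprr1a. Ly6d, Sprr1a and Sdcbp2 were picked on that same difference. A shared cell type or shared control of any of these pairs was not tested.

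Other genes that fetal liver, progenitor cells or liver tumours are known to express were read as a list of 28 in liver. Of these 19 were called higher and 1 lower, beside 25.0% and 21.0% of all liver genes. Their median difference was 1.59 against 0.02 for all genes. Spp1, the secreted matrix protein osteopontin, rose from 1717, 2350 and 2330 normalized reads to 28269, 17006 and 33266 (3.58, limma adjusted p = 4.24e-06). Pkm, whose M2 isoform is fetal and tumour-linked, rose by 1.73, and Scd2, a desaturase of fetal liver, by 2.41. Of the 28, 4 (Epcam, Krt19, Sox9 and Spp1) are also cholangiocyte markers; among the 21 that stand in no other list, 14 rose and 1 fell.

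In LSEC 4 of 27 such genes were called higher, beside 5.24% of all LSEC genes, and 1 lower, beside 2.86%. The 4 were Cd24a, Tspan8, Cd44 and Birc5, and the 1 was Nqo1. Cd44, a hyaluronan receptor, rose from 1028, 457 and 311 to 1910, 3419 and 2456 (2.26, limma adjusted p = 0.0279). Birc5, an inhibitor of apoptosis that dividing cells make, rose by 1.18, and Nqo1, a quinone reductase, fell by 1.48. Of 22 cell cycle genes, 17 rose in liver and 8 in LSEC, Top2a by 2.68 and 1.24. Hepatic stellate cell markers were called higher for 10 of 15 genes in liver and 4 of 15 in LSEC, with Col1a1, the main fibrillar collagen, at 5.18 and 4.08. Beside both lists stand 25.0% of all liver genes and 5.24% of all LSEC genes called higher.

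**Figure D4:**
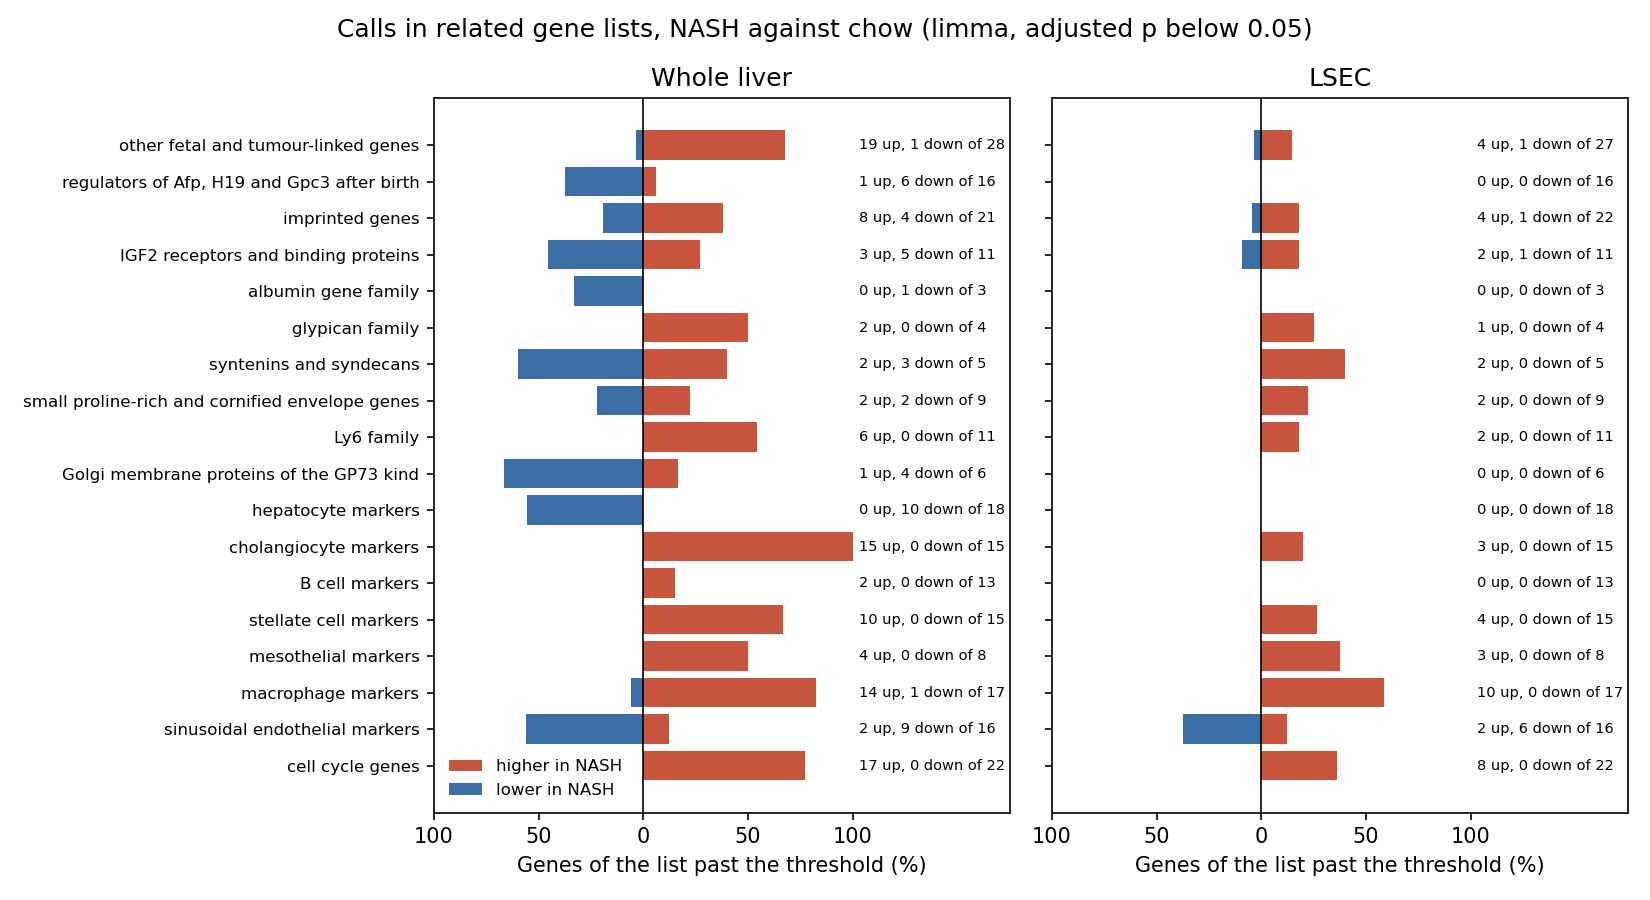
Bars give the share of each list's measured genes called higher (to the right) or lower (to the left) in NASH, in percent, in liver and in LSEC, with the counts beside them. The cholangiocyte list is higher throughout in liver (15 of 15), the hepatocyte list has 10 of 18 genes lower, and fewer genes are called in LSEC.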

How the data were processed

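Whole liver and LSEC libraries, 3 per diet and tissue, were analysed. The submitters' processing notes name build mm10 and the tools STAR, HTSeq and DESeq2 among others, for which the labels give neither version nor setting. Each tissue has 1 deposited table, with a normalized read signal per library and the authors' log2 fold change, p-value and adjusted p-value. In each library all deposited values (100%) are whole multiples, within 0.01, of the smallest one that is not 0, which gives back the read counts; intervals from these cover counting error only. RPKM here are these reads per library total and GENCODE exon length.

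Each tissue was fitted alone with limma 3.58.1 in R 4.3.3 with a variance trend on log2(normalized reads + 1), with no filter and no replicate block; the threshold was a Benjamini-Hochberg adjusted p of 0.05. The difference between tissues was divided by its standard error and read against a t distribution with Welch-Satterthwaite degrees of freedom, over 15766 genes in both tables, without 22 names turned into dates. Alternatives were a count model on those reads (edgeR 4.0.16, DESeq2 1.42.0), pseudocounts of 0.1 and 10, a mean of at least 10 reads, scaling by total reads, and each library left out in turn. The fit was tested on simulated data with 200 genes changed 4-fold per tissue: limma recovered 100% of them in both, and 6.98% of its calls in liver (16454 genes) and 5.21% in LSEC (16171 genes) were false. The changed genes were drawn only from those above a set read level on chow, as many raised as lowered. Every gene had the same dispersion, and far fewer genes changed than were called in liver. Recovery of genes near 0 on chow, such as Sprr1a, was therefore not tested. Replicates of a group differed beyond sampling noise in all 12 pairs (chi-square per degree of freedom 16.4 to 96.2).

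The genes and lists were chosen with earlier results of these data known. Named genes are the 8, up to 3 called genes per list and tissue with the smallest adjusted p, fixed marker anchors and the 2 genes most like each of the 8; neighbours within 100 kb and the genes Cd24a, Tspan8, Grb10, Sdc3, Sdc4, Them6 and Arc were named after their values were seen. Sequences are RefSeq's (GRCm38.p6) and gene positions GENCODE M21 (mm10).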

Additional observations from a re-analysis of the deposited data

Results flagged for a closer look

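For H19 and Golm1 the difference between NASH and chow was not the same in the 2 tissues by a test of that difference. For H19 the liver difference exceeded the LSEC difference by 3.36 on the log2 scale (adjusted p = 0.00233 over 15766 genes, t distribution on limma's variances). For Golm1 it exceeded it by 1.88 (adjusted p = 3.83e-06 by the same test), with all 3 NASH liver libraries above and all 3 NASH LSEC libraries below their chow libraries.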

How the results depend on the processing

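H19 and Golm1 kept their direction and their call in liver, and in the difference between tissues, under all alternatives run; H19 ranged from 4.09 to 5.19 and Golm1 from 1.35 to 1.83 in liver. For Afp in liver, leaving out each library gave 0.78 to 1.38, and it lost its call only without NASH library 3. Differences that did not pass changed sign in places: Gpc3 in liver was 0.27 with scaling by total reads and −0.52 to 0.21 with a library left out, Gpc3 between tissues −0.15 to 0.58 with a library left out, and Afp between tissues −0.30 with a pseudocount of 0.1, −0.48 by edgeR, −0.69 by DESeq2 and −0.50 to 0.34 with a library left out. In LSEC 2 of the genes, Golm1 and Sprr1a, were called with a pseudocount of 10, after dropping genes that average under 10 reads, and by DESeq2, where Golm1 was at −0.46 (adjusted p = 0.0495), −0.47 (0.0482) and −0.46 (0.00899); the count was 0 to 1 with a library left out. Sprr1a was then at 4.08 to 5.29. The cause of these changes was not tested. Over all LSEC genes 1319 were called, 1165 by edgeR, 2503 by DESeq2 and 124 to 1171 with a library left out; in liver 7691 were called, 7559 by edgeR and 7432 by DESeq2. Counts of called list genes in LSEC moved likewise: with a library left out 1 to 14 macrophage markers, 0 to 12 hepatocyte markers, 0 to 7 cell cycle genes and 0 to 3 of the other fetal and tumour-linked genes were called higher, against 10, 0, 8 and 4. Depth limits Afp and Sprr1a in LSEC, where the chow group holds 5 and 4 reads. With the replicate number as a block, Afp (adjusted p = 0.0195), H19 (8.07e-05) and Golm1 (0.000122) were still called in liver, 3 genes as before; same-numbered liver libraries correlated at −0.01, −0.02 and 0.10 in their deviations from the group means, and not every library correlated best with its own number. LSEC columns carry no replicate number.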

Other observations

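The noncoding imprinted RNA Rian, which lies in the same imprinted region as Meg3, was called lower in NASH liver with it: 191, 84.2 and 54.3 normalized reads on chow and 10.1, 11.1 and 18.5 in NASH, a log2 difference of −2.81 (limma adjusted p = 0.000836). In LSEC both were near the limit of detection, with Meg3 at 2.79 to 16.4 and Rian at 0.93 to 7.73 normalized reads over the 6 libraries. Airn, a noncoding imprinted RNA of another region, rose in liver from 11.9, 17.3 and 16.4 to 43.1, 57.3 and 70.8 (1.83, limma adjusted p = 0.00118). These genes were named after their values were seen.

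Lgr5, a receptor of Wnt-responsive cells around the central vein, was the 1 gene of the other fetal and tumour-linked list called lower in liver, at 434, 443 and 510 on chow and 192, 238 and 296 in NASH (−0.95, limma adjusted p = 0.00167).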
